A study of Mus musculus with 8 samples.

Results

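The gene set described here comprised 8 receptors for which natural killer (NK) cells are best known and which activated CD8+ T cells can also express: Klrc1, Klrc2, Klrd1, Klrk1, Klre1, Klrb1c, Klrg1 and Ncr1. The members were chosen by name, as the rows of the expression table that carry these 8 symbols, of 22520 gene rows in all. The RNA came from splenic CD8+ T cells of young adult male wild-type C57BL/6J mice, isolated by magnetic negative selection and kept under continuous stimulation with anti-CD3, anti-CD28 and IL-2 for 6 days. From day 3 the cultures received 40 µM DADA (diisopropylamine dichloroacetate, an inhibitor of pyruvate dehydrogenase kinase) or an equal volume of the solvent DMSO, and both groups were harvested on day 6. Each group held 4 libraries, and none of the 8 came from unstimulated or freshly isolated cells. The comparison asks how DADA changes the state of CD8+ T cells that are driven towards exhaustion. The submitters called the libraries biological replicates, and it is not stated whether they came from separate mice or cultures, so the p-values measure the spread between these libraries, which may be technical.

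NK receptors weigh activating against inhibitory signals at the surface of cytotoxic lymphocytes. CD94 (Klrd1) pairs with NKG2A (Klrc1), which carries inhibitory motifs in its tail, or with NKG2C (Klrc2), which signals through an adaptor, and these pairs read the nonclassical class I molecule Qa-1b (H2-T23). NKG2D (Klrk1) signals through the adaptor DAP10 (Hcst) and reads stress-induced ligands such as MULT1 (Ulbp1). KLRG1 binds cadherins and marks short-lived effector T cells, whereas the Klrb1c product and NKp46 (Ncr1) are textbook markers of the NK lineage.

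The upstream sequences of Klrc1, Klrc2 and Klrk1 are shown because these close neighbours on chromosome 6 gave the largest change among the members past the filter, no called change, and the highest level. Each holds the 250 bases before the annotated start site in RefSeq on build GRCm38.p6, minus strand, written 5′ to 3′ in the direction of the gene, at chr6:129678974-129679223 for Klrc1, chr6:129660557-129660806 for Klrc2 and chr6:129623865-129624114 for Klrk1. Capitals mark matches to TGTGGT, the core bound by RUNX factors, on either strand, and in Klrk1 also a match to the interferon-response pattern GAAANNGAA.
Klrc1: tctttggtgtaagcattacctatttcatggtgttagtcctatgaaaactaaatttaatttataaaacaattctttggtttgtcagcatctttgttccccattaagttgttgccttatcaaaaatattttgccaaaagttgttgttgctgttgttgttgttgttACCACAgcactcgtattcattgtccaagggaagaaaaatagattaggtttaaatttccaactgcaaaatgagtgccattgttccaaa
Klrc2: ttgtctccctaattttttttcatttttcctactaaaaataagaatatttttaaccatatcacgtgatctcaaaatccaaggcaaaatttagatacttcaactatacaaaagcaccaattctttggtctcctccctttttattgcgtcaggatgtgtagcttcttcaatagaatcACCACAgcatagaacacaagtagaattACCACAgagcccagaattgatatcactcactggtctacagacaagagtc
Klrk1: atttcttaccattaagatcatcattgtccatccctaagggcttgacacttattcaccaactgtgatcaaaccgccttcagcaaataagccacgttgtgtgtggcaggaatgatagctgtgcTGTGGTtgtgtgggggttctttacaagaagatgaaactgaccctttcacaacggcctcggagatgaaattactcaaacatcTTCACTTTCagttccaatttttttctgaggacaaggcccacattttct

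RefSeq promoter windows, which reach from 250 bases before to 50 bases after the start site, were given for 6 of the 8 members (Klrc1, Klrc2, Klrk1, Klre1, Klrb1c and Ncr1), and each of the 6 had at least 1 window with TGTGGT. Of all 32851 promoter windows of the same length, 16.8% held this pattern, which is a share of windows and not of genes. Klrc2, Klre1 and Ncr1 had more than 1 window, and 1 window of Klre1 held no match. The match began 87 bases before the start site in Klrc1, 129 before it in Klrk1 and 89 before it in Klrb1c, and the Klrc2 sequence above held 2 matches, at 76 and 49 bases before the start. No member window held the T-box pattern AGGTGT, which 13.7% of all windows held. The pattern GAAANNGAA, held by 8.56% of all windows, was found among the members in Klrk1 alone, 48 bases before the start. Both strands were searched, and no 2 matches in these windows overlapped. The upstream sequence of Klrc2 was 98.0% identical to that of its neighbour Klrc3 in a global alignment and 52.2% identical to that of Klrc1. Pairs from different subfamilies came near the latter value, with Klrc1 and Klrk1 at 49.4% and Klrc2 and Klrk1 at 48.1%. Klrk1 and Klrb1c, also of different subfamilies, gave the lowest value of the pairs compared, 43.7%. A match to so short a pattern describes the letters and does not show that a factor binds there.

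The members fell into a strongly expressed set of 3, a low set of Klrc2 and Klre1, and Klrb1c, Klrg1 and Ncr1 near or below the limit of the libraries. On the FPKM scale, which divides fragments by transcript length and library size and so allows levels of different genes to be set side by side, the order in DMSO was Klrk1, Klrd1 and Klrc1, then Klrc2 and Klre1 at about the same level, then Ncr1, Klrb1c and Klrg1 at or near 0. Klrk1 lay above 97.5% of all gene rows in DMSO, Klrd1 above 95.2% and Klrc1 above 87.9%. The libraries of Klrc2 and Klre1 overlapped in both groups, as did those of Klrb1c and Ncr1 in DMSO, whereas Klrk1, Klrd1 and Klrc1 did not overlap with one another in either group. The summed FPKM of the 8 members ran from 211 to 218 in DMSO and from 189 to 196 in DADA.

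**Figure D1:**
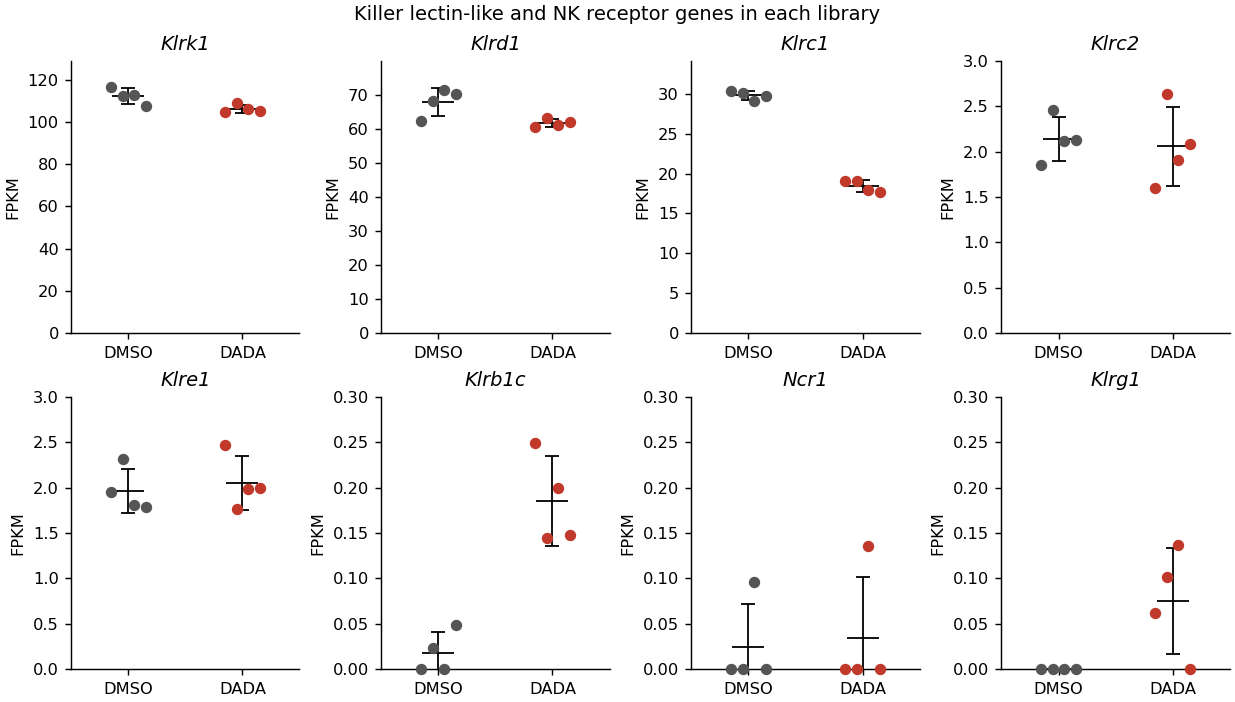
FPKM of the 8 members in each library (points), with the mean and SD of the 4 libraries per group (lines). Every axis starts at 0 and has its own scale; the 4 DADA libraries of Klrc1 lie between 17.7 and 19.1 FPKM, all below the 4 DMSO libraries at 29.1 to 30.4, and all values of Klrb1c, Ncr1 and Klrg1 lie below 0.25 FPKM.

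Differences were tested with limma on log2(FPKM + 1) across the 10666 genes with at least 1 FPKM in at least 4 of the 8 libraries, and a gene was called at a Benjamini-Hochberg adjusted p under 0.05. Of the 8 members, 5 passed this filter, and 3 of the 5 were called lower in DADA (Klrc1, Klrd1 and Klrk1), beside 35.3% of all genes tested. None of the 5 was called higher, beside 30.9% of all genes tested (limma, and none at an unadjusted p under 0.05). Klrc1 was the only one of the 5 with all 4 DADA values below all 4 DMSO values, a pattern seen in 32.2% of all genes tested. DADA moved a large part of the transcriptome, with 3296 genes called higher and 3768 lower, so these counts say little of the members as a set. The median difference was -0.08 over the 5 members and -0.02 over all genes tested, on the log2(FPKM + 1) scale.

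Klrc1, the inhibitory chain NKG2A (ENSMUSG00000030167), showed the largest change of the 5 members tested. Its level was 30.4, 30.1, 29.1 and 29.7 FPKM in the DMSO libraries and 19.1, 19.0, 17.9 and 17.7 FPKM in the DADA libraries. The groups were far apart, and the spread within each was small beside the gap between them. The mean fell from 29.8 ± 0.562 FPKM in DMSO to 18.4 ± 0.736 FPKM in DADA (SD, n = 4 each), which is 61.8% of the DMSO level. The difference in log2(FPKM + 1) was -0.67 with a standard error of 0.03 (limma, adjusted p = 6.59e-08). It lay between -0.69 and -0.65 over the alternatives run, those with 1 library left out included, and was called in each.

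Klrd1, which encodes the CD94 chain shared by the NKG2A and NKG2C receptors (ENSMUSG00000030165), changed by much less. Its DMSO libraries stood at 62.2, 68.0, 71.5 and 70.1 FPKM and its DADA libraries at 60.6, 63.1, 61.2 and 61.9 FPKM. The first DMSO library lay inside the DADA range, and the other three lay above it. The means were 68.0 ± 4.08 FPKM in DMSO and 61.7 ± 1.06 FPKM in DADA (SD, n = 4 each), and the difference in log2(FPKM + 1) was -0.14 with a standard error of 0.04 (limma, adjusted p = 0.0129). An exact permutation test of this difference did not pass (unadjusted p = 0.0571). The summed FPKM of all genes was lower in the DADA libraries (438299 to 449480) than in the DMSO libraries (450473 to 456939). With each library rescaled to the same sum the difference of Klrd1 was -0.11 and was no longer called (limma, adjusted p = 0.0506), as after quantile normalization (-0.10, adjusted p = 0.0595).

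Klrk1, the activating receptor NKG2D (ENSMUSG00000030149), was the most abundant member and changed least among those called. Its level was 117, 112, 113 and 107 FPKM in the DMSO libraries and 105, 109, 106 and 105 FPKM in the DADA libraries. The groups overlapped, with one DMSO library below the highest DADA library. The means were 112 ± 3.74 FPKM and 106 ± 1.92 FPKM (SD, n = 4 each). The exact permutation test of the difference in log2(FPKM + 1) did not pass (unadjusted p = 0.0571). In the limma fit the difference of -0.08, with a standard error of 0.03, was called (limma, adjusted p = 0.0277). That call was lost after rescaling to the same sum (-0.05, adjusted p = 0.123), after quantile normalization (-0.01, adjusted p = 0.863) and without a mean trend of the variance (adjusted p = 0.0590). It was also lost without DMSO replicate 1 (adjusted p = 0.0705), 2 (0.0541) or 3 (0.0618) and without DADA replicate 1 (0.0697) or 4 (0.0679).

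Klrc2 and Klre1 were expressed at a low level and did not pass the test. Klrc2, the activating chain NKG2C (ENSMUSG00000052736), measured 1.86, 2.46, 2.12 and 2.13 FPKM in DMSO and 1.60, 2.64, 1.91 and 2.09 FPKM in DADA, a difference of -0.05 in log2(FPKM + 1) with a standard error of 0.10 (limma, adjusted p = 0.706). Klre1, a lectin-like receptor of NK cells that pairs with other members of the family (ENSMUSG00000050241), measured 1.96, 2.32, 1.81 and 1.79 FPKM in DMSO and 2.47, 1.76, 1.99 and 1.99 FPKM in DADA, a difference of 0.04 with a standard error of 0.08 (limma, adjusted p = 0.695). For both genes the DADA libraries covered the whole DMSO range.

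Klrc1 and Klrc2 are close copies, so the quantification may divide fragments between them and Klrc3. In the GENCODE transcripts, 4.32% of the 150-base windows of Klrc1, 2.48% of those of Klrc2 and 7.34% of those of Klrc3 also occurred in another Klr gene, and at 50 bases the shares were 38.6%, 16.3% and 36.3%. The sum over Klrc1, Klrc2 and Klrc3 was 32.9 ± 0.781 FPKM in DMSO and 21.5 ± 0.861 FPKM in DADA (SD, n = 4 each), with no overlap between the groups. On the log2(FPKM + 1) scale the sum differed by -0.59 (exact permutation test over 70 assignments, two-sided p = 0.0286, the smallest this design allows, and 0.0429 adjusted over the 3 tests of sums and ratios). Klrc1 made up 90.8% ± 0.819 of the sum in DMSO and 85.9% ± 1.53 in DADA (SD, n = 4 each), and these ranges did not overlap. None of the 150-base windows of Klrd1, Klrk1, Klre1, Klrb1c or Klrg1 occurred in another Klr gene.

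The level of Klrc1 per Klrd1, the inhibitory chain set against the CD94 chain it pairs with, was lower in every DADA library. The FPKM ratio was 0.488, 0.443, 0.407 and 0.424 in DMSO and 0.315, 0.302, 0.292 and 0.287 in DADA. The means were 0.440 ± 0.0349 and 0.299 ± 0.0126 (SD, n = 4 each), and the log2(FPKM + 1) of Klrc1 relative to Klrd1 differed by -0.53 (exact permutation test, two-sided p = 0.0286, adjusted over 3 tests 0.0429). Klrk1 per Hcst, the NKG2D receptor against its adaptor, was 16.9 ± 1.94 in DMSO and 16.4 ± 0.833 in DADA (SD, n = 4 each), and its log2 difference of -0.04 did not pass the test (exact permutation test, two-sided p = 0.714). These are ratios of RNA levels, and surface protein was not analysed here.

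**Figure D2:**
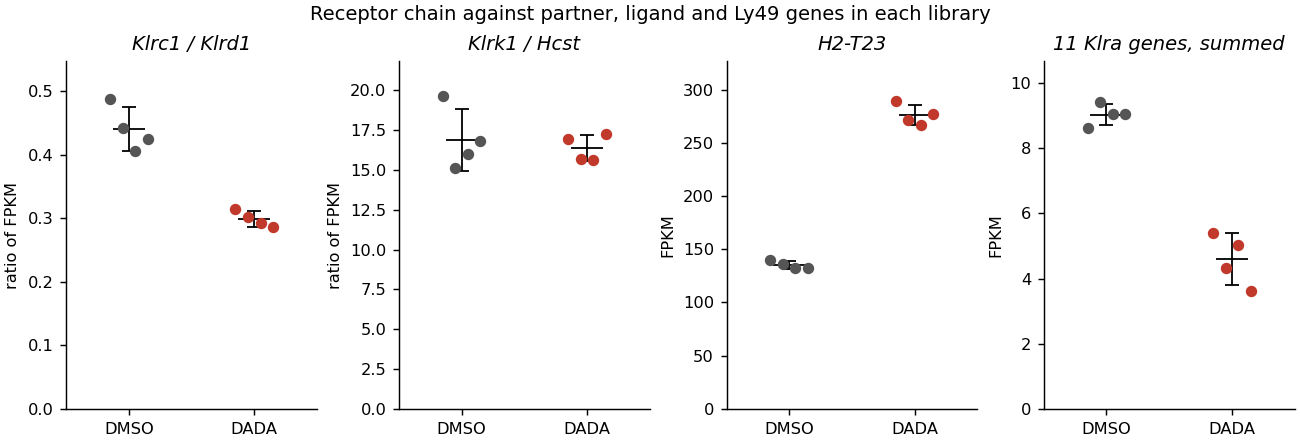
Klrc1 per Klrd1 and Klrk1 per Hcst as ratios of FPKM, H2-T23 in FPKM and the summed FPKM of 11 Klra genes in each library (points), with the mean and SD of the 4 libraries per group (lines); axes start at 0. The groups are separate for Klrc1 per Klrd1 (0.407 to 0.488 in DMSO against 0.287 to 0.315 in DADA), for H2-T23 and for the Klra sum, and overlap for Klrk1 per Hcst.

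Klrb1c, Klrg1 and Ncr1 stayed below 0.25 FPKM in every library and below the filter. They were therefore fitted across the 16167 genes with a value above 0 in any library, of which 24.8% were called higher in DADA. In these libraries 1 fragment on a transcript of 1 kb was worth an estimated 0.0535 to 0.0716 FPKM, so each value rests on few fragments. Every DADA library also had more genes above 0 (14267 to 14453) than every DMSO library (13875 to 14032). The part of this wider detection in the values of these members was not tested. Klrb1c (ENSMUSG00000030325) was listed at 0, 0.0236, 0 and 0.0484 FPKM in DMSO and 0.249, 0.144, 0.200 and 0.148 FPKM in DADA. The groups did not overlap, and how common this is among the 16167 genes was not counted. The difference of 0.22 in log2(FPKM + 1), with a standard error of 0.03, passed the test in this fit (limma without the filter, adjusted p = 0.000507). Over the alternatives run for it the adjusted p ranged from 0.000267 to 0.00667.

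Klrg1 (ENSMUSG00000030114) was listed at 0 in all 4 DMSO libraries and at 0.0613, 0.102, 0.136 and 0 FPKM in DADA. On a transcript of 1414 bases the values above 0 are an estimated 1.54, 2.66 and 2.83 fragments. Klrg1 entered the fit without the filter only through its DADA libraries, so it could not have been called lower there. That fit called it higher (difference 0.10, limma adjusted p = 0.0429), but the exact permutation test gave p = 0.143. The call was lost under quantile normalization (adjusted p = 0.0505), without the mean trend (0.0573) and when any library other than DADA replicate 4 was left out (up to 0.114). Ncr1 (ENSMUSG00000062524), which lies on chromosome 7 apart from the chromosome 6 members, was above 0 in 1 library of each group, at 0.0959 FPKM in DMSO replicate 3 and 0.136 FPKM in DADA replicate 3 (limma without the filter, adjusted p = 0.854).

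The libraries carried the markers of CD8+ T cells in both groups. The 7 such markers measured, Cd8a, Cd8b1 and the CD3 chains among them, summed to 1026 to 1058 FPKM in DMSO and 1268 to 1302 FPKM in DADA, and all 7 were called higher. Of 14 NK cell markers, 11 stayed below 1 FPKM in every library and Khdc1a was listed at 0 throughout, and the list summed to 17.8 to 20.05 FPKM in DMSO and 24.6 to 26.9 FPKM in DADA. The other three, Gzma, Eomes and Fcer1g, are also made by T cells, and without them the remaining 11 summed to 1.79 to 1.95 FPKM in DMSO and 2.19 to 2.90 FPKM in DADA. Klrb1c and Ncr1 are themselves on this list, and the part of NK cells in the difference of Klrb1c was not tested. In such bulk libraries fewer cells that express a gene and less RNA per cell cannot be told apart. Of 6 myeloid markers, 5 stayed below 1 FPKM and 3 were listed at 0 in every library, and the list summed to 3.44 to 3.96 FPKM in DMSO and 5.11 to 5.59 FPKM in DADA. This sum was nearly all Cd68, a lysosomal protein, which was called higher (3.43 to 3.90 FPKM in DMSO and 5.09 to 5.54 FPKM in DADA). B cell markers summed to 2.59 to 3.54 FPKM in DMSO and 2.36 to 3.09 FPKM in DADA, and CD4 T cell markers to 16.3 to 17.4 and 15.3 to 15.8 FPKM. Markers of NKT and gamma-delta T cells summed to 1.74 to 2.45 and 1.78 to 2.13 FPKM, and erythroid markers to at most 0.258 FPKM. The part of any of these cells in the differences of the members was not tested.

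Klre1, Klrd1, Klrk1, Klrc3, Klrc2 and Klrc1 follow one another on chromosome 6 in RefSeq order, and their differences were not alike. Within this run Klre1, Klrc3 and Klrc2 were not called, Klrd1 and Klrk1 differed by -0.14 and -0.08, and Klrc1 by -0.67. Over the wider NK gene complex, from Klrb1a to Klra1, the annotation holds 42 protein-coding genes. Of these 13 passed the filter, while 11 were listed at 0 in every library. Among the 13, 3 were called higher (Clec2d, Cd69 and Gabarapl1), beside 30.9% of all genes tested, and 7 lower, beside 35.3%. The remaining 3 were not called. The 7 include the members Klrd1, Klrk1 and Klrc1. The lower genes outside the members were BC035044, Clec2i, Klra7 and Klra3. The stretch was chosen after values of these genes had been seen.

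**Figure D3:**
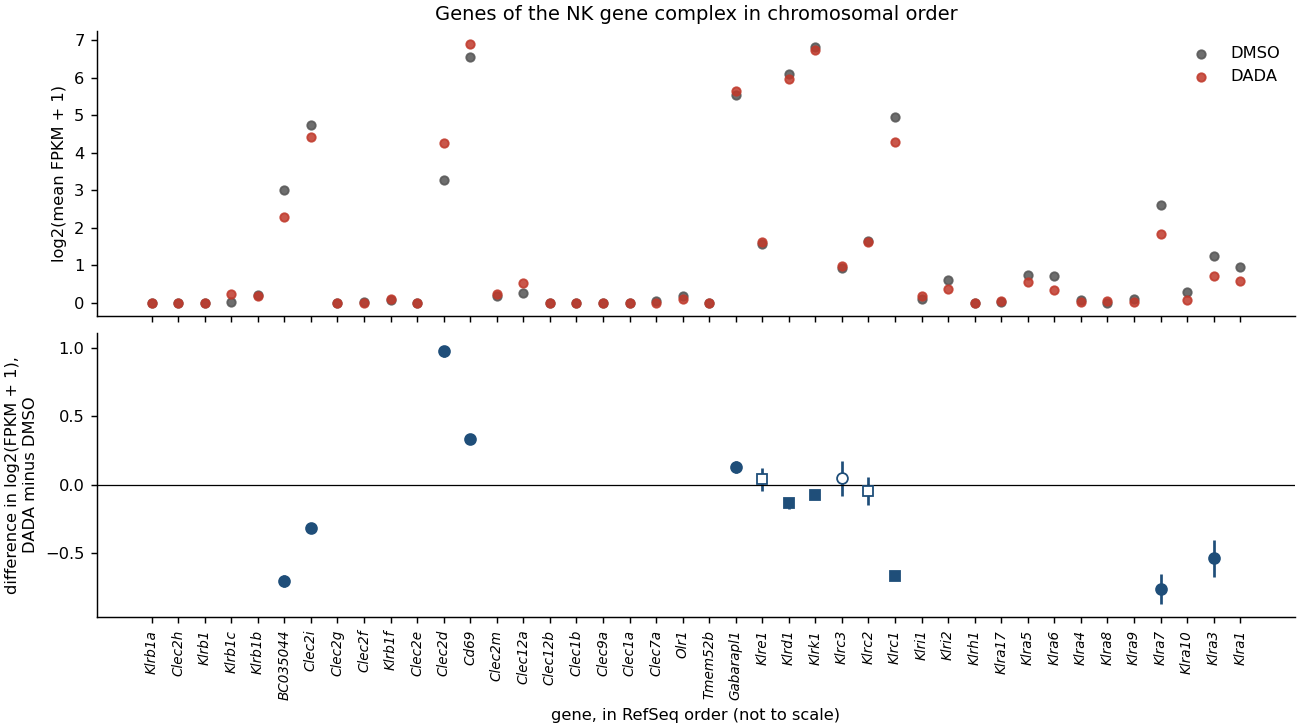
Genes of the NK gene complex in RefSeq order (not to scale), with log2(mean FPKM + 1) per group above and, below, the difference in log2(FPKM + 1), DADA minus DMSO, with its standard error for the 13 genes tested; squares mark members, and filled symbols an adjusted p under 0.05. Klrc1 sits at -0.67 next to Klrc2 and Klrc3, whose open symbols lie near 0.

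Among 22 other lectin-like receptor genes (Klr genes, Clec2d and Clec12b), 4 passed the filter. Of these 1 was called higher, beside 30.9% of all genes tested, 2 lower, beside 35.3%, and 1 was not called. The median difference was -0.25. Klra7, an inhibitory Ly49 receptor for class I molecules, was 4.42 to 5.75 FPKM in DMSO and 1.86 to 3.13 FPKM in DADA, with no overlap (difference -0.77, limma adjusted p = 0.000144). Klra3, another inhibitory Ly49 receptor, was 1.04 to 1.77 FPKM in DMSO and 0.381 to 1.07 FPKM in DADA (difference -0.54, limma adjusted p = 0.00550). Klra3 passed the filter through its DMSO libraries, where it is high. The Ly49 genes are close copies of one another, and the assignment of fragments among them is uncertain. Their sum over 11 Klra genes was 9.03 ± 0.322 FPKM in DMSO and 4.59 ± 0.793 FPKM in DADA (SD, n = 4 each), again with no overlap. Clec2d, a ligand of the inhibitory Klrb1b receptor, rose from 8.73 ± 0.434 to 18.1 ± 0.393 FPKM (SD, n = 4 each; difference 0.97, limma adjusted p = 1.5e-08). Klrc3 measured 0.606 to 1.20 FPKM in DMSO and 0.676 to 1.31 FPKM in DADA and did not pass the test (limma, adjusted p = 0.765).

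Of 13 NK-associated receptors of the immunoglobulin family, 7 passed the filter. Among these 3 were called higher, beside 30.9% of all genes tested, and 4 lower, beside 35.3%. The median difference was -0.20. TIGIT, an inhibitory receptor, and DNAM-1 (Cd226), an activating one, compete for the same ligands, and both genes fell. Tigit went from 102 ± 4.46 FPKM in DMSO to 59.5 ± 1.52 FPKM in DADA (difference -0.77, limma adjusted p = 2.51e-08) and Cd226 from 14.3 ± 0.924 to 10.2 ± 0.921 FPKM (SD, n = 4 each; difference -0.46, limma adjusted p = 0.000138). Crtam, a receptor for a nectin-like ligand, fell from 26.3 ± 1.01 to 19.3 ± 0.156 FPKM (difference -0.43). Slamf7, a self-binding receptor of the SLAM family, rose from 8.08 ± 0.258 to 79.3 ± 3.82 FPKM (difference 3.14, limma adjusted p = 4.07e-12). Lilrb4a, an inhibitory receptor, rose from 21.1 ± 0.953 to 48.8 ± 3.95 FPKM (difference 1.17), and Cd160 rose from 13.1 ± 0.505 to 15.3 ± 0.874 FPKM (difference 0.21).

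Hcst, Fcer1g and Tyrobp, adaptors of activating NK receptors, gave no called difference. Hcst, the DAP10 adaptor of NKG2D, measured 6.70 ± 0.662 FPKM in DMSO and 6.50 ± 0.43 FPKM in DADA (SD, n = 4 each; difference -0.04, limma adjusted p = 0.659). Fcer1g, the common Fc receptor gamma chain, measured 1.62 ± 0.428 and 1.58 ± 0.212 FPKM (difference -0.01, limma adjusted p = 0.920). Tyrobp, the DAP12 adaptor of NKG2C, lay below the filter, at 0.271, 0, 0 and 0 FPKM in DMSO and 0.0468, 0.632, 0.335 and 0.414 FPKM in DADA (limma without the filter, adjusted p = 0.0793). Its DMSO and DADA values overlapped through the first library of each group, and it was called without DMSO replicate 1 (adjusted p = 0.0434) and without DADA replicate 1 (0.0144). Over 17 adaptors and proximal signalling genes, 14 passed the filter. Of these 7 were called higher, beside 30.9% of all genes tested, 1 lower, beside 35.3%, and 6 were not called. The median difference was 0.15. The highest were Pik3cd, a catalytic subunit of phosphoinositide 3-kinase (0.37), Plcg1, a phospholipase C (0.32), and Cd247, the CD3 zeta chain (0.27), and the lower one was Ptpn11, the phosphatase SHP-2 (-0.13, limma adjusted p = 0.00630).

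Among the ligands the gene for Qa-1b, the ligand of the NKG2A and NKG2C pairs, moved opposite to Klrc1. H2-T23 stood at 140, 136, 133 and 133 FPKM in DMSO and at 289, 271, 267 and 277 FPKM in DADA. The groups did not overlap, and every DADA library was far above every DMSO library (difference 1.02, standard error 0.03, limma adjusted p = 1.15e-09). The classical class I genes H2-D1 and H2-K1, whose products the Ly49 receptors read, also rose, by 0.33 and 0.31 on the log2(FPKM + 1) scale. Ulbp1, an NKG2D ligand, was 11.4 ± 0.484 FPKM in DMSO and 11.9 ± 0.66 FPKM in DADA (SD, n = 4 each; difference 0.06, limma adjusted p = 0.296). Clec2i, a ligand of Klrb1 family receptors, fell from 25.7 ± 1.21 to 20.4 ± 0.616 FPKM (difference -0.32). Cdh1, the E-cadherin ligand of KLRG1, did not exceed 0.0535 FPKM in any library (limma without the filter, adjusted p = 0.439). In all, 15 of 19 ligand genes were measured and 5 passed the filter. Of these 3 were called higher, beside 30.9% of all genes tested, 1 lower, beside 35.3%, and 1 was not called.

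Of 15 transcription factors tied to NK receptor expression, 14 passed the filter. Among them 10 were called higher, beside 30.9% of all genes tested, 3 lower, beside 35.3%, and 1 was not called. The median difference was 0.33, beside -0.02 over all genes tested. Prdm1, which encodes BLIMP-1, rose from 0.661 ± 0.0853 to 7.56 ± 0.806 FPKM (SD, n = 4 each; difference 2.36, limma adjusted p = 2.18e-09). Its DMSO libraries all lay below 1 FPKM, so it passed the filter only through DADA, where it is high. Id2 rose from 29.9 ± 2.38 to 76.9 ± 10.5 FPKM (difference 1.33) and Nfil3, needed for NK cell development, from 28.9 ± 1.45 to 73.3 ± 3.36 FPKM (difference 1.31). Id3, the partner of Id2 in the same family of inhibitors, fell from 10.2 ± 1.02 to 4.48 ± 0.532 FPKM (difference -1.03), and Eomes, a T-box factor, from 13.7 ± 0.405 to 10.5 ± 0.523 FPKM (difference -0.36). Bcl11b, which holds T cells to the T lineage, was 9.36 ± 0.493 and 8.39 ± 0.362 FPKM (difference -0.14, limma adjusted p = 0.0219), and its call was lost after rescaling to the same sum (adjusted p = 0.0671), without DMSO replicate 2 (0.0620) and without DADA replicate 2 (0.0606). Runx3, named after its value was seen because the TGTGGT pattern was searched, rose from 24.4 ± 0.977 to 52.0 ± 1.06 FPKM (difference 1.07, limma adjusted p = 1.72e-09). Tbx21, a T-box factor like Eomes, was also named after its value was seen, because the T-box pattern was searched. It moved opposite to Eomes, from 14.3 ± 1.15 to 22.7 ± 1.20 FPKM (difference 0.64, limma adjusted p = 4.94e-06).

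**Figure D4:**
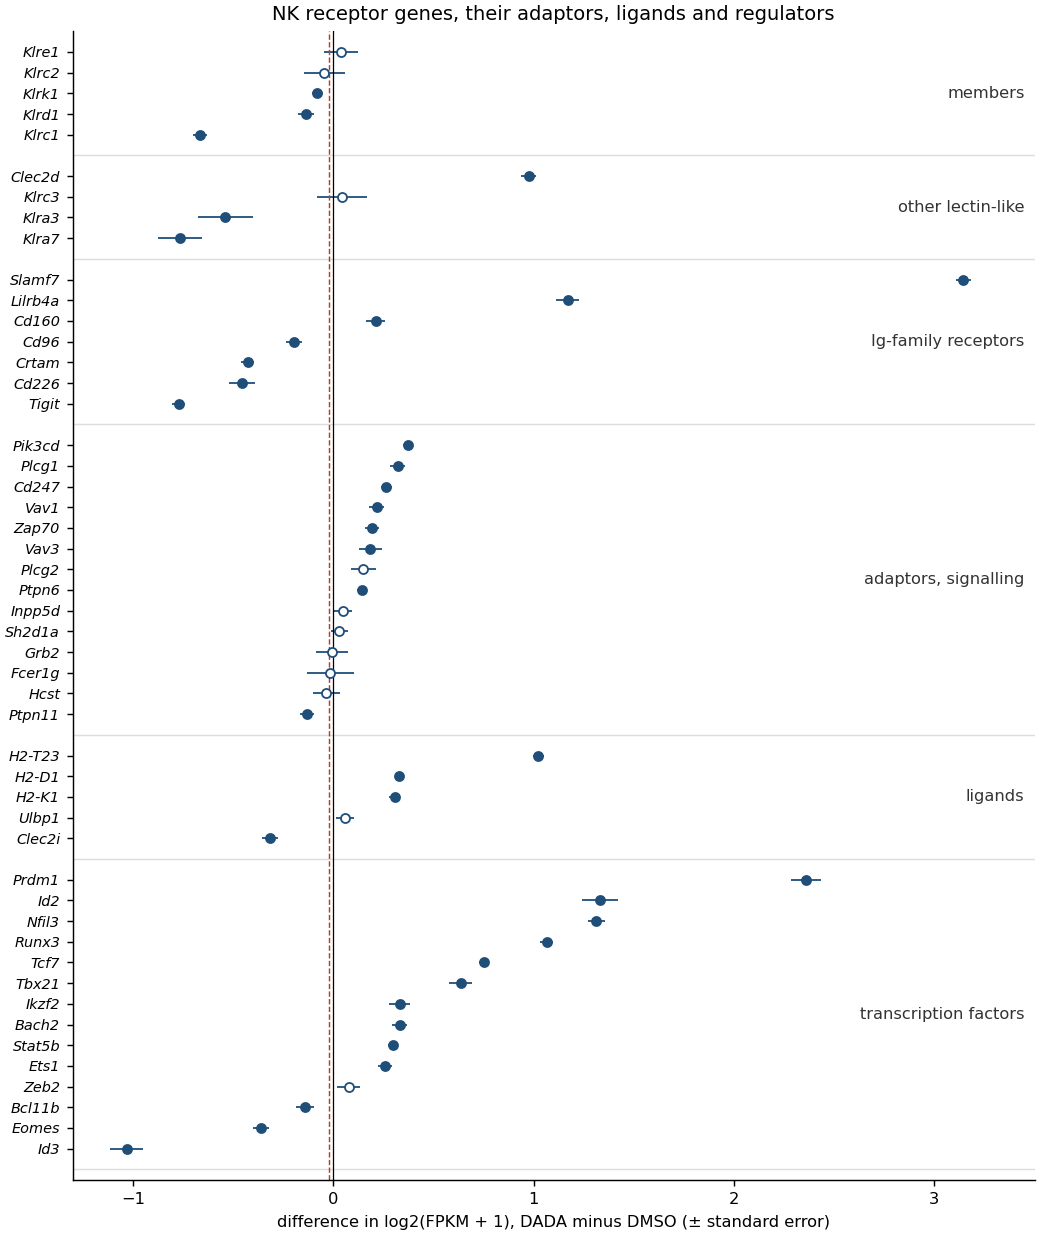
Difference in log2(FPKM + 1), DADA minus DMSO, with its standard error, for every gene that passed the filter among the members and the 5 related lists; filled points have an adjusted p under 0.05, and the dashed line marks the median of all genes tested (-0.02). Klrc1 lies at -0.67, Klrk1 and Klrd1 lie close to the dashed line, and H2-T23 lies at 1.02.

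Across the 8 libraries the members did not follow one common pattern. Pearson's r of log2(FPKM + 1), which includes the difference between the groups and is given as a description, was 0.78 between Klrc1 and Klrk1, 0.75 between Klrc1 and Klrd1, 0.39 between Klrk1 and Klrd1 and 0.16 between Klrc1 and Klrc2. The genes most like Klrc1 were Npm3 (r = 0.9995), Phgdh (0.9986) and Psmd5 (0.9985), all lower in DADA. Those most like Klrd1 were Ap4s1 (0.984), Polr3b (0.976) and Epg5 (0.967), and those most like Klrk1 were Mrpl20 (0.987), Oaz1 (0.970) and Cd82 (0.970). The closest to Klrc2 were Ube2g2 (0.923), Mrpl27 (0.918) and Jagn1 (0.917), and to Klre1 Scamp2 (0.949), Ermardl2 (0.936) and H3c1 (0.923). With 8 libraries and 10666 genes, a high r does not mark a specific partner. For Klrc1, 1547 genes had an r over 0.95, against 12 for Klrd1, 7 for Klrk1 and 0 for Klrc2 and Klre1.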

How the data were processed

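RNA-seq was made from 8 libraries of mouse CD8+ T cells, 4 treated with DMSO and 4 with DADA, sequenced as read pairs of 150 bases. The deposited table held 1 FPKM value per gene and library (fragments per transcript length and library size), computed by the authors. The submitters' processing notes name CASAVA 1.8.2, FastQC 0.11.9, HISAT2 2.0.5, StringTie 1.3.3, Picard 1.41 and SAMtools 0.1.18 and the builds GRCm39 and GRCh38, with no role for each. No read counts were used. Depth was estimated from the steps between low FPKM values of genes with a single transcript, at 14.0 to 16.5 M fragments in DMSO and 14.7 to 18.7 M in DADA. Only 36.9% to 43.9% of low values came within 0.1 of an integer count, against 20% for random values, so whole reads were not recovered and no count model was run.

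Genes with at least 1 FPKM in at least 4 libraries were tested with limma 3.58.1 (R 4.3.3) on log2(FPKM + 1), with a mean trend of the variance and Benjamini-Hochberg adjustment over all genes tested. The pseudocount of 1 understates changes of low genes. Members below the filter were fitted over all 16167 genes above 0. Sums and ratios were tested with exact two-sided permutation tests, which were also run, without adjustment, on single members. Alternatives were a pseudocount of 0.1, no filter, a mean of at least 5 FPKM, rescaling to a common sum (TPM), median-ratio scaling, quantile normalization, no mean trend, a replicate block and leaving out each library. The fit was tested on simulated data. Promoter sequences came from RefSeq (GRCm38.p6), whose build differs from GRCm39, and transcript lengths and shared windows from GENCODE transcripts. The text names all 8 members, in each other list the 3 called genes with the largest change in each direction plus Hcst, Tyrobp, Fcer1g, H2-T23, Cdh1 and Ulbp1, and for each member tested the 3 genes with the most similar values. The members and lists were chosen with earlier results of these data known.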

Additional observations from a re-analysis of the deposited data

Results flagged for a closer look

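In 5 of 79 groups of 4 libraries, 1 library lay apart from the others by more than Dixon's 95% limit for its gap divided by the whole range. For values without ties, chance alone gives about 1 in 20. Ncr1 was above 0 in DMSO replicate 3 alone (0.0959 FPKM, ratio 1) and, among the DADA libraries, in replicate 3 alone (0.136 FPKM, ratio 1). Tyrobp was at 0.271 FPKM in DMSO replicate 1 and at 0 in the other DMSO libraries (ratio 1). Cdh1 was at 0.0391 FPKM in DADA replicate 1 and at 0 in the other DADA libraries (ratio 1). These values are a few fragments at most. In these groups of Ncr1, Tyrobp and Cdh1 the other libraries were at 0, so the ratio is 1 whatever the value. The rate of 1 in 20 does not apply to such groups. Ulbp1 was 10.7 FPKM in DMSO replicate 1 and 11.5 to 11.7 FPKM in the other DMSO libraries (ratio 0.846).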

How the results depend on the processing

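Of 599 tested differences recomputed under an alternative, 558 kept their direction and their side of the threshold, and of 208 counts of genes called, 202 stayed within 1.5 times the reported count. The genes called numbered 5741 to 7868 over the alternatives. Without the filter, 2 members were called higher (Klrb1c and Klrg1), as were 5 immunoglobulin-family receptors, and 5 other lectin-like receptors were called lower. Klrg1 and the receptor gene Cd300a were at 0 in every DMSO library, so they entered this fit only through DADA. With a mean of at least 5 FPKM none of the lectin-like receptors called lower remained (0), since fewer genes were tested. After rescaling to a common sum and after quantile normalization, 1 member was called lower, Klrc1. Leaving out 1 library gave 2 to 3 members called lower, 6700 to 6848 genes called, 7 to 8 adaptors higher and 2 to 3 transcription factors lower. Among the results recomputed, directions turned only for differences that did not pass the test. Under quantile normalization these were Klre1 (-0.0964), Ncr1 (-0.00069) and Klrk1 against Hcst (0.0819), and after rescaling Fcer1g (0.0106). With 1 library left out, Klrc2 ranged from -0.134 to 0.0288, turning without DMSO replicate 2 or DADA replicate 1, and Klre1 from -0.0233 (without DADA replicate 1) to 0.0943. Hcst ranged from -0.0844 to 0.00866 (without DMSO replicate 2), Fcer1g from -0.125 to 0.0702, turning without DMSO replicate 1 or 3 or DADA replicate 3, Ncr1 from -0.0330 (without DADA replicate 3) to 0.0460, and Klrk1 against Hcst from -0.0880 to 0.0233 (without DMSO replicate 1). The cause was not tested. Same-numbered libraries did not deviate together (r = 0.0953, -0.12, -0.0877 and 0.0751). These r values were not tested and cannot show whether the numbers pair the libraries. With the replicate number as a block, the Klrc sum (-0.59) and Klrc1 against Klrd1 (-0.53) did not pass, since sign changes within 4 pairs cannot reach the threshold. Under the block Bcl11b had a limma adjusted p of 0.0599 and Klrg1 one of 0.0555, and no other call compared changed. The calls of Runx3, Tbx21, Cd69, BC035044, Gabarapl1 and the cell type markers outside the lists were not compared. Scaling left the median of all genes between -0.05 and 0.01. At this depth, differences of members under 0.25 FPKM rest on a few fragments.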
